A study of Mus musculus with 44 samples.

Results

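The comparison set 5 Treg cultures of miR-150 knockout (KO) CD4 T cells against 5 Th0 cultures of the same genotype, 10 of the 44 libraries of the study. Members were taken by title, and 1 Treg KO title has a zero typed for the letter O. The mice were C57BL/6NTac. Naive CD4 T cells were isolated from their spleens by sorting, at 150000 in each well, and cultured for 3 days on an antibody to CD3 bound to the plate, with antibody to CD28 in solution. Th0 cultures received these antibodies alone, and Treg cultures also received an antibody to interferon-gamma (IFN-g) and TGF-beta 1. Both the TGF-beta 1 and this antibody therefore separate the groups, and their effects cannot be told apart. Wild type (WT, 5 Th0 and 5 Treg libraries) and knock-in (KI, 4 Th0 and 5 Treg) cultures were used beside the KO values. The labels give the KO only as miR-150 KO, name no cell type in which the locus was changed, and do not say whether a library number marks an animal. P-values therefore measure the spread between these libraries, which may be technical in part.

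TGF-beta binds the receptors TGFBR1 and TGFBR2, which phosphorylate SMAD2 and SMAD3. With SMAD4 these enter the nucleus and, in a T cell activated through its antigen receptor, contribute to the induction of Foxp3, the transcription factor that defines regulatory T cells. Foxp3 and TGF-beta signalling are known to repress interleukin-2 (IL-2) and other effector cytokines. miR-150 is a microRNA abundant in mature resting lymphocytes, and the transcription factor gene Myb is its best known target. The study's title names CD4 T cell differentiation and function in experimental autoimmune encephalomyelitis. The comparison asks how the Treg culture changed gene expression in cells that lack this microRNA.

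Mir150 (ENSMUSG00000065495, chr7:45121757-45121821, GRCm38) had 0 counts in the 10 libraries and in all 15 KO libraries. It had 6 counts over 15 WT and 7 over 14 KI libraries, at most 2 in any library. Libraries made from polyadenylated RNA hold few microRNA precursors, so these counts are a weak check of the genotype. The CD4 T cell markers were present in all 10 libraries, with a summed level of 2091 to 2515 CPM (read counts per 1000000 counted reads, with TMM scaling) in Th0 KO and 2392 to 3793 CPM in Treg KO. Total counts per library ran from 81317504 to 135207685, so that 3 counts, the floor used here, stood for 0.0222 to 0.0369 CPM. The libraries numbered 2 stood apart in both cultures. The summed CD8 T and NK cell markers were at 303 CPM in Treg KO 2 against 60.01 to 69.3 CPM in the other 4 Treg KO libraries. In Th0 KO this sum was 120.8 to 172 CPM, and Th0 KO 2, at 153 CPM, lay within the range of the others. Cd8a itself was at 1.27, 20.5, 5.35, 4.002 and 7.76 CPM in Th0 KO 1 to 5 and 5.67, 73.1, 13.1, 13.2 and 15.4 CPM in Treg KO 1 to 5. Counts that rest on these libraries are given below with and without the library numbers that had the highest Cd8a of their genotypes (KO 2, WT 4 and KI 3, called the doubted library numbers), left out of every culture.

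Treg culture changed the level of many genes in KO cells. Of 21873 genes tested, 3736 (17.1%) were higher and 3478 (15.9%) lower in Treg KO at an adjusted p under 0.05 in edgeR's quasi-likelihood test, 33% in all. At least 2-fold changes made up 1755 (8.02%) and 1384 (6.33%) of all genes tested. For 4980 genes (22.8%) the 5 Treg KO values did not overlap the 5 Th0 KO values. Without the library numbers named above, 4256 genes were called higher and 4152 lower. The first principal component of the 10 libraries held 66.1% of the variance and separated the cultures, with Th0 KO at -40.0 to -29.3. Treg KO 2 lay at 6.76 on it, against 36.7 to 50.8 for the other Treg KO libraries. In the text, called, rose and fell refer to the adjusted p, which was taken over all genes tested, and fold changes are on the log2 scale, Treg minus Th0, with their SE. Gene positions are on GRCm38. Counts of list members called below stand beside the 17.1% of all genes that rose and the 15.9% that fell.

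**Figure D1:**
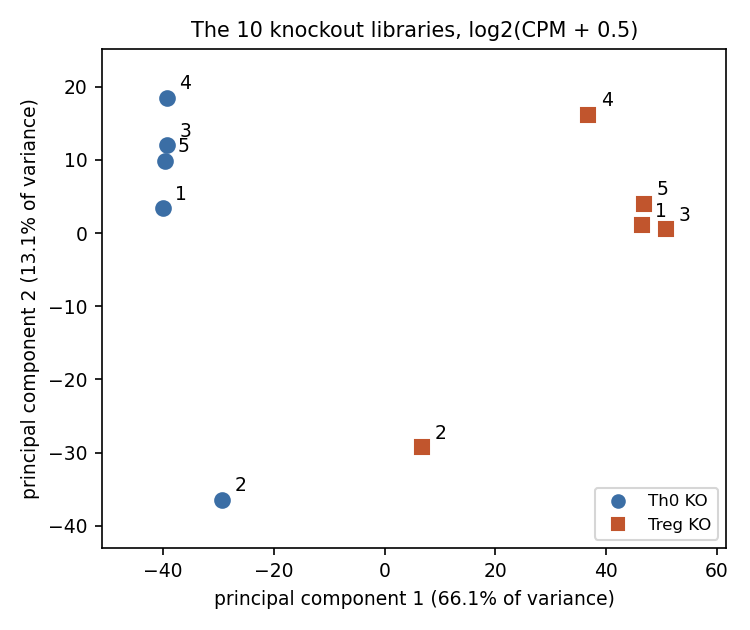
Principal components of the 10 KO libraries, computed from log2(CPM + 0.5) of the tested genes whose mean over these libraries was at least 2. Each point is a library and the figure beside it its number. The x axis holds 66.1% and the y axis 13.1% of the variance. Th0 KO libraries lie on the left and Treg KO libraries on the right, with Treg KO 2 between them and both libraries numbered 2 low on the y axis.

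Genes of the regulatory T cell programme rose in part. Foxp3 itself, the markers CD101, CD73 (Nt5e) and CD103 (Itgae), and the transcription factors Ikzf2 and Ikzf4 were higher in Treg KO. Several other genes linked to regulatory T cells, such as Areg, Penk and the IL-27 and IL-35 subunit Ebi3, fell. Of the 30 genes on this list, all tested, 13 rose and 5 fell, with a median of 0.45, against a median of 0.04 over all genes. The share that fell was near the 15.9% of all genes, while 17.1% of all genes rose. Without the doubted library numbers 15 rose and 9 fell, and without Treg KO 2 alone 8 fell.

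Foxp3 (chrX:7573644-7595245) was at 0.362, 1.096, 0.689, 0.7301 and 0.858 CPM in Th0 KO 1 to 5 and 419, 77.4, 376, 411 and 431 CPM in Treg KO 1 to 5. All Treg KO libraries were far above all Th0 KO libraries, with Treg KO 2 the lowest of its group. The difference was 8.85 ± 0.73 (adjusted p = 8.47e-11), and it was 7.69 in WT and 8.64 in KI. Nt5e (chr9:88327197-88372092), which encodes the ectoenzyme that makes adenosine from AMP, was at 3.16, 5.05, 2.74, 2.72 and 4.79 CPM in Th0 KO 1 to 5 and 232, 99.8, 229, 167 and 247 CPM in Treg KO 1 to 5. The groups did not overlap, and the difference was 5.72 ± 0.63 (adjusted p = 2.53e-08). Cd101 (chr3:100993529-101029556), an inhibitory surface receptor, was at 0.535, 1.69, 0.947, 0.684 and 0.956 CPM in Th0 KO 1 to 5 and 68.2, 17.99, 73.1, 41.6 and 71.1 CPM in Treg KO 1 to 5. Here too Treg KO 2 was the lowest Treg KO library and still above every Th0 KO library (5.83 ± 0.55, adjusted p = 1.46e-09).

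Itgae (chr11:73090583-73147446), the alpha chain of the integrin that binds E-cadherin, was at 0.559, 1.76, 0.919, 0.933 and 0.773 CPM in Th0 KO 1 to 5 and 43.8, 17.99, 34.04, 7.93 and 17.1 CPM in Treg KO 1 to 5. Its Treg KO values were spread widely, with Treg KO 4 and not Treg KO 2 the lowest, and none reached down to Th0 KO (4.61 ± 0.58, adjusted p = 2.26e-07). Lrrc32 (chr7:98489283-98502181), which encodes GARP, the surface anchor of latent TGF-beta, was at 1.22, 6.3001, 3.28, 2.08 and 2.08 CPM in Th0 KO 1 to 5 and 42.3, 23.7, 31.5, 25.3 and 47.4 CPM in Treg KO 1 to 5. The groups did not overlap (3.51 ± 0.49, adjusted p = 1.07e-06). The other rises were Gpr83 (3.39 ± 0.57), a receptor gene known from regulatory T cells, Entpd1, which encodes CD39 (2.69 ± 0.76), Izumo1r, the folate receptor FR4 (2.25 ± 0.23), Ikzf4 (2.21 ± 0.26), Nrp1 (2.13 ± 0.61), Capg (2.11 ± 0.19), Ikzf2 (2.1 ± 0.4) and the inhibitory receptor gene Ctla4 (1.12 ± 0.24). Ctla4 rose from 254 ± 61.4 to 552 ± 69.3 CPM (SD, n = 5 each).

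The 5 members that fell were Areg, an epidermal growth factor receptor ligand (-3.73 ± 0.89), Penk, the proenkephalin gene (-2.73 ± 0.69), Tigit, an inhibitory receptor (-1.86 ± 0.67), Ebi3 (-1.12 ± 0.29) and Tnfrsf4, which encodes OX40 (-1.04 ± 0.22). The call of Tigit was lost without any of Treg KO 1, 3, 4 or 5, where its value was -1.80 to -1.71. Il2ra, the alpha chain of the IL-2 receptor, was at 1355 ± 549.97 CPM in Th0 KO and 1763 ± 336 CPM in Treg KO (SD, n = 5 each), and its groups overlapped (adjusted p = 0.187). It passed the test at 0.65 without Th0 KO 2 and at 0.62 without the doubted library numbers. Il10, an inhibitory cytokine, was at 1.504 ± 2.71 CPM in Th0 KO and 0.662 ± 1.42 CPM in Treg KO, with overlapping groups (adjusted p = 0.53). Its difference of -1.17 ± 1.3 turned to 1.17 without Th0 KO 2 and passed the test at -5.82 without Treg KO 2 and at -3.45 without the doubted library numbers.

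**Figure D2:**
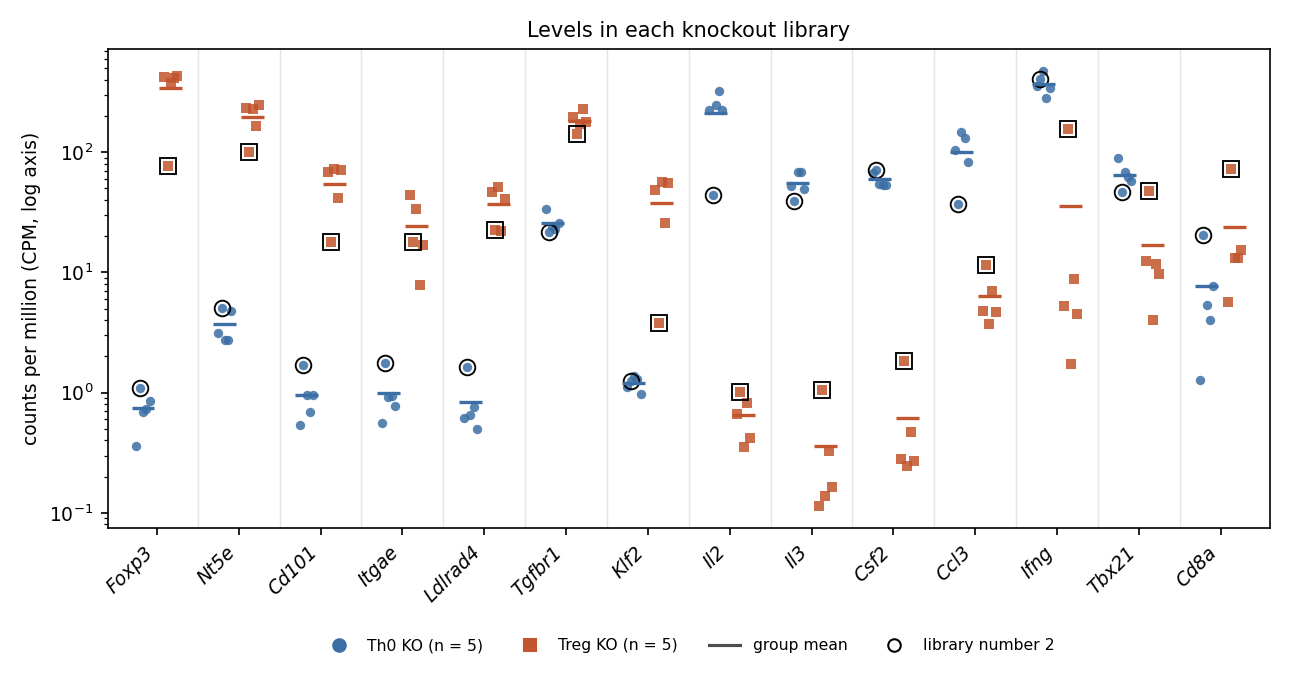
Levels of 14 genes in each of the 10 KO libraries, in CPM on a log axis; blue circles are Th0 KO, orange squares Treg KO, bars group means, and black outlines the libraries numbered 2. Foxp3 to Klf2 are high in Treg KO and Il2 to Ccl3 in Th0 KO without overlap, while Treg KO 2 lies nearest to the Th0 KO libraries for Ifng and Tbx21 and highest for Cd8a.

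Some of the largest rises were in genes that are not on the list. Tead1 (chr7:112679318-112906807), a DNA-binding partner of the Hippo pathway effectors YAP and TAZ, was at 0.283, 0.0438, 0.402, 0.03697 and 0.208 CPM in Th0 KO 1 to 5 and 41.8, 12.7, 44.4, 64.4 and 54.8 CPM in Treg KO 1 to 5, a difference of 7.78 ± 1.13 (adjusted p = 1.69e-06). All Th0 KO values were low and Treg KO 2 was the lowest Treg KO library. Among the 12 largest rises at a mean log2 CPM of at least 2 were also Emp1 (5.15 ± 0.84), Rragd, a Rag GTPase of the mTORC1 pathway (4.82 ± 0.53), Grb7, an adaptor protein gene (4.67 ± 0.54), and Sgk1, a serum- and glucocorticoid-induced kinase (4.6 ± 0.49). Each of these 5 genes was also higher in Treg than in Th0 culture in WT and KI, with WT values of 3.46 (Sgk1), 3.53 (Grb7), 3.04 (Rragd), 7.23 (Emp1) and 6.2 (Tead1).

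In the TGF-beta pathway, receptor genes and feedback inhibitors rose, while Smad2 and Smad3, which carry the signal, did not pass the test. Of 29 genes, all tested, 11 rose and 3 fell, with a median of 0.49. The median was 0.10 without Treg KO 1, 0.11 without Treg KO 2 and 0.17 with the deeper sequencing lane alone. Under the other settings tried it was 0.33 to 0.53. Without the doubted library numbers 11 rose and 4 fell. Among the receptors, Tgfbr1 (chr4:47353222-47414931) was at 33.8, 21.7, 24.3, 23.1 and 25.7 CPM in Th0 KO 1 to 5 and 196, 142.3, 173, 228 and 177 CPM in Treg KO 1 to 5. Every Treg KO value was more than 4 times the highest Th0 KO value (2.83 ± 0.37, adjusted p = 3.15e-07). The other type I receptor gene Acvr1b (1.71 ± 0.25) and the type II receptor gene Tgfbr2 (0.84 ± 0.18) rose as well.

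Of the inhibitors, Ldlrad4, whose product keeps SMAD2 and SMAD3 from the receptor, was at 0.614, 1.63, 0.651, 0.758 and 0.503 CPM in Th0 KO 1 to 5 and 46.8, 22.6, 51.8, 22.01 and 40.9 CPM in Treg KO 1 to 5. The groups did not overlap, and the difference was the largest of this list (5.47 ± 0.53, adjusted p = 1.94e-09). Smad7, the inhibitory SMAD, was at 7.22, 8.33, 7.88, 9.23 and 6.904 CPM in Th0 KO 1 to 5 and 32.5, 18.7, 30.9, 23.3 and 34.9 CPM in Treg KO 1 to 5. Its groups did not overlap (1.83 ± 0.28, adjusted p = 4.03e-06). Pmepa1, whose product also sequesters SMAD2 and SMAD3, rose by 2.78 ± 0.26, the SMAD co-repressors Ski and Skil by 1.57 ± 0.23 and 1.28 ± 0.15, and the ubiquitin ligases Smurf1 and Smurf2 by 1.02 ± 0.2 and 0.61 ± 0.14. Of the signal carriers, Smad4 rose by 0.49 ± 0.12, while Smad2 (-0.2 ± 0.1, adjusted p = 0.135) and Smad3 (-0.05 ± 0.15, adjusted p = 0.83) did not pass the test. Smad2 passed it at -0.27 without Th0 KO 2, and Smad3 turned to 0.12 there.

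Among the 3 members that fell were the ligand gene Tgfb2 (-2.57 ± 0.92), which was at 0.284 CPM in Th0 KO on average, and Id2, an inhibitor of basic helix-loop-helix factors (-1.08 ± 0.34). The call of Id2 was lost without Th0 KO 2, at -0.67, and that of Tgfb2 without Th0 KO 5, Treg KO 2 or Treg KO 5, at -2.27 to -2.20. Without Treg KO 5 only 1 member fell. Tgfb1, the gene of the ligand added to the Treg cultures, was at 91.9 ± 11.6 CPM in Th0 KO and 132.7 ± 28.9 CPM in Treg KO (adjusted p = 0.0632). The SMAD box CAGACA, read on both strands, was found for 29.1% of 406 genes called at least 4-fold higher and 18.9% of 375 called at least 4-fold lower. It was found for 19.9% of 12845 genes tested and 23.6% of all 27025 genes. Motif shares here and below are of genes with a promoter in the reference, each counted once, if any of its promoters held the motif. Promoters are the 250 bases before and 50 bases after a RefSeq start on GRCm38.p6, and a match describes letters, not binding.

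Of 25 cytokine genes of activated T cells, all tested, 12 fell and 1 rose, with a median of -1.76. The median was -1.33 without Th0 KO 2 and -2.67 without Treg KO 2. IL-2, the growth factor of T cells, IL-3 and GM-CSF (Csf2) were all but gone from Treg KO cultures, at less than 2 CPM in every library. Without the doubted library numbers 16 fell and 1 rose.

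Il2 (chr3:37120523-37125959, on the minus strand) was at 223, 43.9, 247, 323 and 226 CPM in Th0 KO 1 to 5 and 0.667, 1.02, 0.352, 0.825 and 0.417 CPM in Treg KO 1 to 5. The lowest Th0 KO value, that of Th0 KO 2, was still above every Treg KO value. The difference was -8.34 ± 1.2 (adjusted p = 1.44e-06), close to -7.84 in WT and -8.34 in KI. The Il2 promoter is a classical site of NFAT binding in activated T cells, and its 2 matches to the NFAT core GGAAAA, 1 of them read on the opposite strand as its reverse complement, are shown because Il2 fell further than any other gene above the level minimum. The sequences are RefSeq's for GRCm38.p6, given 5′ to 3′ along the minus strand, with the match in capitals. The first lies at chr3:37126074-37126103, and the other, nearer to the RefSeq start, at chr3:37125985-37126014, with its match 42 bases before that start.
Il2 distal: gtcatcagaagaGGAAAAacaaaggtaatg
Il2 proximal: cccccatattatTTTTCCagcattaacagt
Counted by gene, the core was found for 8 of 21 cytokine genes with a promoter in the reference table, for 24.2% of genes tested and for 26.1% of all genes. It was found for 26.6% of genes at least 4-fold higher and 22.9% of those at least 4-fold lower. The AP-1 motif TGANTCA was found for 13.3% of the latter, 8.37% of the former, 6.89% of genes tested and 8.97% of all genes.

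Il3 (chr11:54265303-54267277) and Csf2 (chr11:54247271-54249667) lie side by side on chromosome 11. Il3, a growth factor of myeloid progenitors and mast cells, was at 51.9, 39.3, 68.1, 68.9 and 49.3 CPM in Th0 KO 1 to 5 and 0.113, 1.06, 0.137, 0.327 and 0.165 CPM in Treg KO 1 to 5 (-7.25 ± 1.08, adjusted p = 2.47e-06). Csf2, the gene of GM-CSF, was at 66.8, 70.6, 54.6, 53.02 and 53.5 CPM in Th0 KO 1 to 5 and 0.283, 1.83, 0.244, 0.473 and 0.271 CPM in Treg KO 1 to 5 (-6.58 ± 1.03, adjusted p = 5.76e-06). In both, Treg KO 2 was the highest Treg KO library, far below Th0 KO. Il22 had 681 counts over the 5 Th0 KO libraries, 365 of them in Th0 KO 2, and 0 in the 5 Treg KO libraries, which made it at least 44.9-fold lower against a floor of 3 counts per library. Il13, a cytokine of type 2 immunity, was at 12.2, 127.2, 6.15, 4.62 and 4.52 CPM in Th0 KO 1 to 5 and 0.136, 7.21, 0, 0.388 and 0.194 CPM in Treg KO 1 to 5. Its groups overlapped through Treg KO 2, and its call (-4.28 ± 1.49, adjusted p = 0.024) was lost without Th0 KO 2, Treg KO 1, 3, 4 or 5, at -4.05 to -2.11.

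Members of the tumour necrosis factor family fell too. Tnfsf11, the gene of RANKL, fell by 2.43, Cd40lg, the ligand by which T cells help B cells, by 1.79, Tnfsf14 by 1.76, Tnf by 1.36, Tnfsf8 by 1.18 and Fasl, a death receptor ligand, by 1.98. The call of Fasl was lost without Th0 KO 1, Treg KO 1, 3, 4 or 5, at -1.93 to -1.78. Osm, the gene of oncostatin M, fell by 0.69. The 1 cytokine gene that rose was Ltb (chr17:35194439-35196320), the gene of lymphotoxin beta, at 15.8, 19.3, 17.9, 17.3 and 11.1 CPM in Th0 KO 1 to 5 and 133.6, 57.7, 161, 102.7 and 161 CPM in Treg KO 1 to 5. Its groups did not overlap (2.92 ± 0.36, adjusted p = 1.8e-07).

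Chemokine genes fell with the cytokines: 6 of 11 fell and 1 rose, with a median of -1.31, and 7 fell and 2 rose without the doubted library numbers. The neighbours Ccl3 (chr11:83647844-83649355) and Ccl4 (chr11:83662584-83664683), which encode inflammatory chemokines, moved alike. Ccl3 was at 104.9, 37.2, 146.1, 130.6 and 82.7 CPM in Th0 KO 1 to 5 and 4.76, 11.6, 3.75, 6.996 and 4.69 CPM in Treg KO 1 to 5 (-3.98 ± 0.85, adjusted p = 0.000347). Ccl4 was at 86.9, 26.4, 96.3, 83.99 and 53.6 CPM in Th0 KO 1 to 5 and 6.88, 12.82, 4.301, 3.44 and 4.24 CPM in Treg KO 1 to 5 (-3.45 ± 0.76, adjusted p = 0.000497). Neither overlapped between groups, and Th0 KO 2 was the lowest Th0 KO library for both. Cxcl10 (-2.79 ± 0.67), Ccl5 (-2.67 ± 0.55) and Ccl9 (-1.91 ± 0.49) fell as well. Ccl20, the gene of the CCR6 ligand, rose by 3.7 ± 1.21, from 0.0774 to 1.01 CPM on average.

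For Ifng, Tbx21 and Gzmb, genes of Th1 and cytotoxic cells, the call changed with the model and with 1 library. Ifng (chr10:118441046-118445892), the signature cytokine of Th1 cells, was at 354, 404, 474, 281 and 343 CPM in Th0 KO 1 to 5 and 5.25, 157, 1.74, 8.88 and 4.52 CPM in Treg KO 1 to 5. Treg KO 2 was far above the other Treg KO libraries, although it did not reach Th0 KO. The difference of -3.39 ± 1.45 did not pass edgeR's test (adjusted p = 0.0695) and was -6.22 and called without Treg KO 2. With all libraries kept, edgeR called it when only the 2 groups compared were fitted (-3.40, adjusted p = 0.0282), as did DESeq2 (adjusted p = 0.00388). Tbx21 (chr11:97098071-97115331), which encodes the Th1 transcription factor T-bet, was at 89.3, 46.6, 68.7, 62.5 and 57.5 CPM in Th0 KO 1 to 5 and 12.6, 47.3, 4.06, 11.7 and 9.72 CPM in Treg KO 1 to 5. Its groups overlapped through Treg KO 2 and Th0 KO 2 (-1.93 ± 0.79, adjusted p = 0.0556), and it passed the test at -2.79 without Treg KO 2. It was also called with only the groups compared (-1.95, adjusted p = 0.0128 by edgeR) and by DESeq2 (adjusted p = 0.0316). Gzmb (chr14:56258838-56262260), the gene of the cytotoxic granule protease granzyme B, was at 1599, 4421, 1278, 1045 and 1626 CPM in Th0 KO 1 to 5 and 37.4, 1657, 18.7, 62.5 and 67.7 CPM in Treg KO 1 to 5. It did not pass the test (-2.44 ± 1.38, adjusted p = 0.181) and did so without Treg KO 2, at -5.45. With the Cd8a level as a covariate all 3 were called, at -6.38 (Ifng), -2.87 (Tbx21) and -5.08 (Gzmb). The library with the high values, Treg KO 2, is that with 303 CPM of summed CD8 T and NK cell markers, and the part of those cells in these values was not tested.

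Over the Th1 list as a whole 7 of 23 genes rose and 5 fell, with a median of -1.28, where 17.1% of all genes rose and 15.9% fell. The number that fell was 11 without the doubted library numbers, 10 without Treg KO 2, 3 without Treg KO 1 and 2 without Treg KO 3. Among the members called lower were Fasl, Stat4, the transducer of IL-12 signals (-1.85 ± 0.4), Eomes, a T-box factor (-1.79 ± 0.61), and Il12rb1, an IL-12 receptor chain (-1.28 ± 0.43). Eomes lost its call without Th0 KO 3 or Treg KO 3, at -1.61 and -1.64 in the 2 fits, and Il12rb1 without Treg KO 1 or 3, at -1.19 and -1.14. Several other receptor genes of the list rose. The IL-18 receptor chains Il18r1 (3.38 ± 0.41) and Il18rap (1.07 ± 0.21), both IFN-g receptor chains, Ifngr1 (1.64 ± 0.26) and Ifngr2 (0.74 ± 0.18), and the IL-27 receptor gene Il27ra (0.52 ± 0.12) were called higher. Il18r1 rose from 19.03 ± 4.83 to 199 ± 92.4 CPM (SD, n = 5 each).

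Of 11 Th2 genes tested only Il13 was called, and 4 fell without the doubted library numbers. Leaving out 1 library gave 6 lower members without Treg KO 2, 2 without Th0 KO 1 and 0 without Th0 KO 2 or Treg KO 1, 3, 4 or 5. Gata3, the Th2 transcription factor, was at 53.9 ± 25.3 CPM in Th0 KO and 43.4 ± 13.5 CPM in Treg KO, with overlapping groups (adjusted p = 0.577). On the Th17 list 8 of 16 genes rose and 2 fell, Il22 and the AP-1 family factor Batf (-1.59 ± 0.34), with a median of 0.79. Without the doubted library numbers 8 rose and 3 fell, and without Treg KO 2 alone 4 fell. Maf (3.95 ± 0.7), the IL-6 receptor chains Il6ra (2.56 ± 0.42) and Il6st (1.97 ± 0.32), Ccr6 (1.88 ± 0.62), the aryl hydrocarbon receptor gene Ahr (1.53 ± 0.35) and Rora (1.18 ± 0.31) rose.

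Il17f and Il17a, which encode IL-17 cytokines, did not pass the test in KO cells. Il17f (chr1:20777146-20790617) was at 0.393, 0.208, 1.196, 0.3697 and 1.05 CPM in Th0 KO 1 to 5 and 0.419, 0.729, 0.8896, 1.103 and 1.12 CPM in Treg KO 1 to 5. The groups overlapped (0.41 ± 0.73, adjusted p = 0.717). In WT cultures Il17f rose by 3.97 and in KI cultures by 2.19. The difference of the KO from the WT effect was -3.57 ± 1.06 and did not pass the test over all genes (adjusted p = 0.558). Il17a was at 0.708 ± 0.503 CPM in Th0 KO and 0.192 ± 0.137 CPM in Treg KO (adjusted p = 0.261).

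The IL-2 pathway genes moved in both directions. Of 12 tested, 4 rose and 2 fell (median 0.27), where 17.1% of all genes rose and 15.9% fell. Without the doubted library numbers the counts were also 4 and 2, with Il2ra called (0.62) and Stat5b not (0.43). Socs2 (chr10:95385362-95417180), a target gene and inhibitor of STAT5, was at 18.2, 41.8, 14.9, 8.79 and 12.9 CPM in Th0 KO 1 to 5 and 180.1, 116.6, 200.5, 285 and 237 CPM in Treg KO 1 to 5. It rose without overlap while Il2 fell (3.4 ± 0.51, adjusted p = 2.97e-06). Stat5a fell by 0.64 and Jak1 rose by 0.49 ± 0.11. Jak3 (0.79 ± 0.29) and Stat5b (0.44 ± 0.18) were also called. Jak3 lost its call without any of Th0 KO 3, 4 and 5 and Treg KO 1, 2, 3 and 5, at 0.64 to 0.79. Stat5b lost it without any of the 10 libraries, at 0.34 to 0.46. In 7 of these fits 2 members were called higher, near the share of all genes.

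Naive and quiescence genes were higher in Treg KO. Of 24 tested, 14 rose and 2 fell, with a median of 0.74, and without the doubted library numbers 16 rose and 4 fell. Without Th0 KO 2 alone 5 fell. Klf2 (chr8:72319033-72321656), a transcription factor of quiescence and lymph node homing, was at 1.12, 1.26, 1.37, 1.29 and 0.981 CPM in Th0 KO 1 to 5 and 48.9, 3.78, 56.2, 25.8 and 55.9 CPM in Treg KO 1 to 5. Treg KO 2 was far below the other Treg KO libraries and nearest to Th0 KO (4.98 ± 0.69, adjusted p = 9.56e-07). Its target S1pr1, the receptor by which T cells leave lymph nodes, rose by 2.34 ± 0.44, with overlapping groups.

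Igfbp4 (chr11:99041244-99054392), a gene known from naive T cells, was at 15.6, 41.9, 15.6, 13.7 and 13.7 CPM in Th0 KO 1 to 5 and 507, 90.2, 543, 364 and 684 CPM in Treg KO 1 to 5 (4.45 ± 0.58, adjusted p = 3.47e-07). No Treg KO value reached down to Th0 KO, and the libraries numbered 2 lay nearest to each other. Pik3ip1, an inhibitor of PI3 kinase, rose by 2.32 ± 0.39, Klf3 by 1.62 ± 0.51, Ets1 by 1.32 ± 0.17, Foxo1 by 1.01 ± 0.17 and Lef1 by 0.73 ± 0.22. Satb1, a chromatin organiser of T cells, fell by 1.58, and Slfn2, needed for T cell quiescence, by 1.14. Tcf7, which encodes TCF-1, was at 204 ± 40.7 CPM in Th0 KO and 302 ± 94.9 CPM in Treg KO. It had overlapping groups (adjusted p = 0.138) and passed the test without the doubted library numbers, at 0.62. The motif CCACACCC of KLF factors was found for 6.40% of genes at least 4-fold higher and 5.33% of those at least 4-fold lower. It was found for 4.67% of genes tested and 4.09% of all genes with a promoter in the reference.

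Of 25 transcription factor genes induced by the antigen receptor, 10 fell, 1 rose and 14 were not called (median -0.47), where 15.9% of all genes fell. They numbered 13 lower and 1 higher without the doubted library numbers. The AP-1 genes Fosl1 (-3.2 ± 0.51) and Fos (-1.94 ± 0.35), the nuclear receptor gene Nr4a2 (-1.85 ± 0.43), Egr2 (-0.96 ± 0.26), Nfkb1 (-0.77 ± 0.16) and Myc (-0.71 ± 0.17) were among those that fell, and Nfatc2 rose by 0.79 ± 0.2. Without Th0 KO 2 or without Treg KO 4, 2 were called higher.

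Surface receptors changed in both directions. So did all genes tested, of which 17.1% rose and 15.9% fell. Of 22 costimulatory and inhibitory receptors 6 rose and 7 fell (median -0.56), and without the doubted library numbers 6 rose and 12 fell. The activation marker Cd69 (-1.54 ± 0.27), Cd226 (-1.75 ± 0.37), Cd200 (-1.67 ± 0.27), Btla (-0.88 ± 0.24) and Cd274, which encodes PD-L1 (-0.86 ± 0.22), fell. Cd28 (0.84 ± 0.21), Cd27 (1.25 ± 0.19) and Cd96 (1.23 ± 0.32) rose. Of 18 integrin and adhesion genes 6 rose and 4 fell, and 7 rose and 6 fell without the doubted library numbers. Those that fell were Selp, the gene of P-selectin (-5.28 ± 1.14), Itga2 (-2.31 ± 0.51), Itgb1 (-1.23 ± 0.2) and Itgb3 (-1.08 ± 0.35). Itgb7, the partner chain of Itgae in gut-homing T cells, rose by 2.27 ± 0.33, Itga6 by 2.17 ± 0.3, Selplg, the gene of the P-selectin ligand, by 0.99 ± 0.23 and Itgb2 by 0.7 ± 0.15.

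Of 16 chemokine and egress receptors 7 rose and 1 fell (median 0.88), where 17.1% of all genes rose and 15.9% fell. Without the doubted library numbers 7 rose and 3 fell. Without Th0 KO 2 alone 2 fell. Cx3cr1 (3.87 ± 0.67) and the gut-homing receptor gene Ccr9 (2.64 ± 0.56) rose from 0.295 and 0.274 CPM on average, S1pr4 by 1.74 ± 0.28 and Cxcr4 by 1.64 ± 0.52. In the purinergic list 3 of 12 rose and 4 fell, with 4 and 4 without the doubted library numbers. Next to the rise of both ectoenzyme genes, Entpd1 and Nt5e, the adenosine receptor genes Adora2a (-1.62 ± 0.31) and Adora2b (-1.75 ± 0.55), adenosine kinase, Adk (-0.88 ± 0.18), and the ADP receptor gene P2ry1 (-2.24 ± 0.5) fell. P2ry10, a receptor for lysophosphatidylserine, rose by 0.89 ± 0.16.

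**Figure D3:**
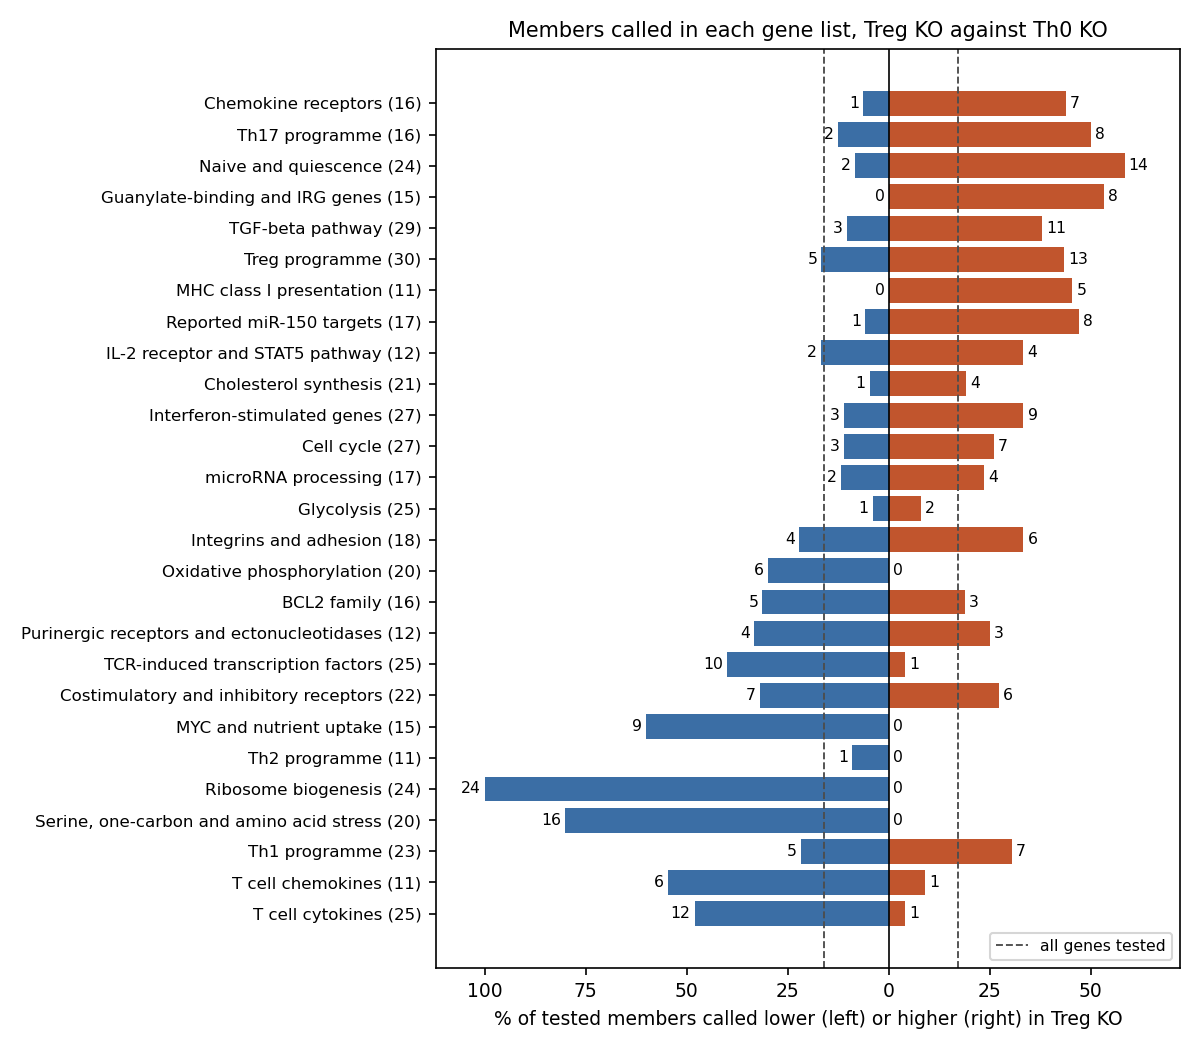
Share of the tested members of each gene list called higher (right, orange) or lower (left, blue) in Treg KO; the number of tested members is in brackets, the number called stands at each bar, and dashed lines mark the 17.1% and 15.9% of all genes tested. Lists run from the highest median fold change at the top to the lowest at the bottom. Ribosome biogenesis (24 of 24) and serine and one-carbon genes (16 of 20) hold the largest shares of lower members.

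Ribosome biogenesis was lower throughout. All 24 genes of the list, which make, modify and process ribosomal RNA, fell, with no overlap between groups (10.4% of all genes tested were called lower without overlap) and a median of -1.24. The same count was found without the doubted library numbers and on leaving out each library. Nop56 (chr2:130274430-130279313), a core protein of the box C/D particles that methylate ribosomal RNA, was at 781, 547, 699.6, 654 and 710.2 CPM in Th0 KO 1 to 5 and 255, 375, 220.2, 258 and 230.2 CPM in Treg KO 1 to 5. Every Treg KO library was below every Th0 KO library, with Treg KO 2 the highest of its group (-1.34 ± 0.19, adjusted p = 1.47e-06). Polr1b, a subunit of RNA polymerase I, fell by 1.56 and Rrp9, a U3 particle protein, by 1.55. The abundant nucleolar genes Ncl and Npm1 fell from 3337 ± 415 to 1539.9 ± 313 CPM and from 2973 ± 203 to 1664 ± 383 CPM (SD, n = 5 each). Fbl, the methylase of the same particles as Nop56, had the smallest change of the 24, -0.7 ± 0.15.

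Amino acid synthesis and stress genes were lower as well. Of 20 genes of serine and one-carbon metabolism and of the amino acid response directed by ATF4, 16 fell and none rose (median -1.25), with 15 called lower without the doubted library numbers. Cth (chr3:157894248-157925077), which makes cysteine from cystathionine, was at 42.6, 61.7, 53.6, 62.7 and 77.3 CPM in Th0 KO 1 to 5 and 2.14, 15.98, 2.25, 1.103 and 2.16 CPM in Treg KO 1 to 5. Treg KO 2 was the highest Treg KO library and did not reach Th0 KO (-3.65 ± 0.67, adjusted p = 5.26e-05). Asns (chr6:7675169-7693254), asparagine synthetase, was at 198, 287, 217, 208 and 301 CPM in Th0 KO 1 to 5 and 44.5, 166, 39.9, 34.9 and 40.1 CPM in Treg KO 1 to 5. The groups did not overlap, and Treg KO 2 again lay nearest to Th0 KO (-1.9 ± 0.56, adjusted p = 0.00825).

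Atf4 itself fell by 1.43, its targets Chac1 by 2.35 and Aldh1l2 by 3.02, and the mitochondrial one-carbon enzyme genes Mthfd2 and Shmt2 by 1.36 and 0.91. Psat1, in serine synthesis, fell by 0.98, while Phgdh, the enzyme gene before it in that pathway, was at 482 ± 63.1 CPM in Th0 KO and 429 ± 30.9 CPM in Treg KO with overlapping groups (adjusted p = 0.574). Of 15 genes of the MYC and nutrient uptake list 9 fell and none rose (median -0.79), with 10 called lower without the doubted library numbers. Odc1 (chr12:17544794-17551505), the first enzyme of polyamine synthesis and a known MYC target, was at 1802, 902, 1792, 1794 and 1683 CPM in Th0 KO 1 to 5 and 437, 619.8, 363, 591 and 404 CPM in Treg KO 1 to 5. Th0 KO 2 was the lowest Th0 KO library and remained above Treg KO (-1.72 ± 0.22, adjusted p = 2.9e-07). The chains of the large neutral amino acid transporter, Slc7a5 and Slc3a2, fell by 1.14 and 1.14 and the lactate transporter gene Slc16a1 by 1.19. Stress genes moved with these groups: 6 of 10 fell and 1, Dnajb1, was called higher at 0.2 ± 0.07 (not called without Th0 KO 2, 4 or 5 or Treg KO 1, 2, 3 or 5, at 0.15 to 0.20), and the summed level of the 10 was 10920.1 to 12994 CPM in Th0 KO and 7395 to 9535 CPM in Treg KO. The heat shock genes Hspa1b (-3.24 ± 0.58), Hspa1a (-2.85 ± 0.69), Hsph1 (-1.38 ± 0.23) and Hsp90aa1 (-1.01 ± 0.2) fell most, and their part in the other changes was not tested.

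**Figure D4:**
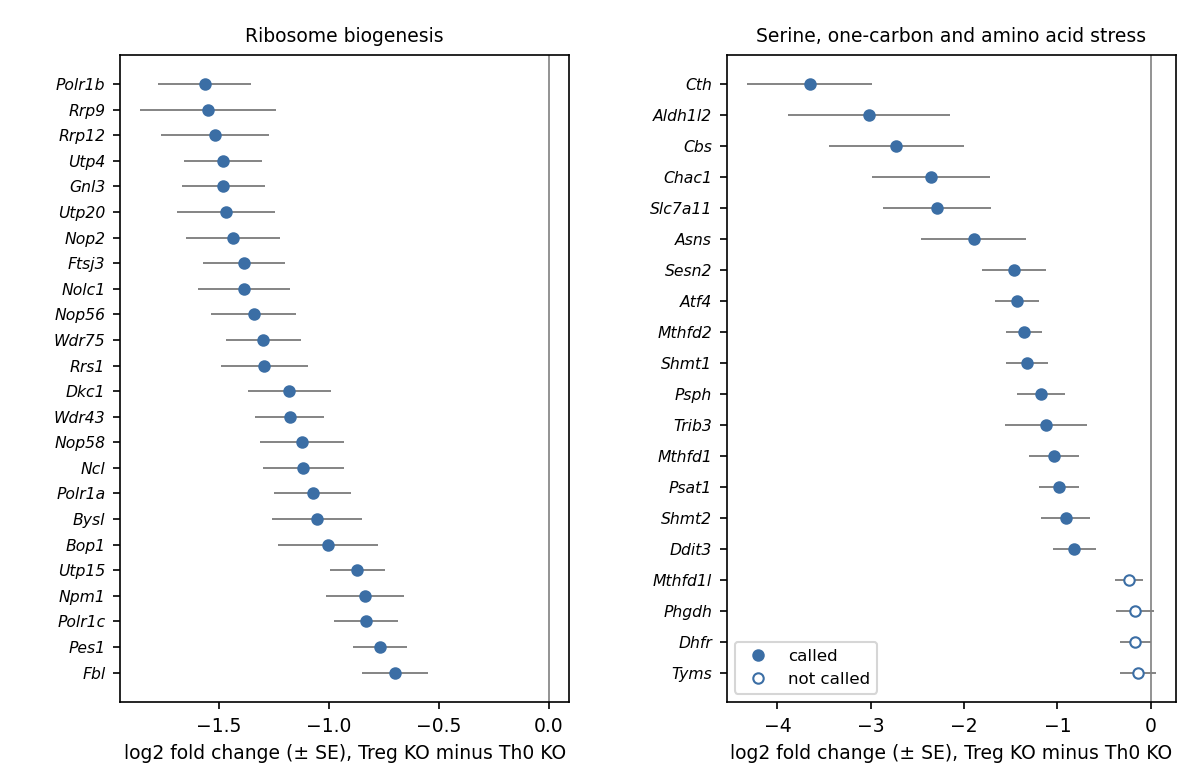
Fold change (log2, Treg KO minus Th0 KO) with its SE for the 24 ribosome biogenesis genes (left) and the 20 serine, one-carbon and amino acid stress genes (right); filled points passed the test and open points did not. All points of the left panel lie between -1.56 and -0.70, and those of the right panel between -3.65 and -0.14, with 4 open.

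Few glycolysis genes passed the test. Of 25 glycolysis genes tested (1 symbol stands for more than 1 gene) 2 rose and 1 fell, shares below those of all genes. Hexokinase 2, Hk2, fell by 1.38, and Pdk1, which limits entry of pyruvate into mitochondria, and Eno3 rose by 0.78 ± 0.15 and 1.05 ± 0.29. Without Th0 KO 2 alone 5 were called higher, and without the doubted library numbers 3 rose and 2 fell. Of 20 oxidative phosphorylation genes 6 fell, against 15.9% of all genes, and none rose, with a small median of -0.22. The number that fell was 10 without the doubted library numbers, with relative log expression factors and by DESeq2. The largest fall was that of cytochrome c, Cycs (-0.88 ± 0.2). Of 21 genes of cholesterol metabolism 4 were called higher, near the 17.1% of all genes, and 1 lower, against 15.9%. Without the doubted library numbers 5 were called higher and 1 lower. Abcg1, an exporter of cholesterol, rose by 3.23 ± 0.45, the synthesis genes Sc5d by 0.72 ± 0.11, Dhcr7 by 0.65 ± 0.2 and Mvk by 0.77 ± 0.29, and Idi1 fell by 0.75. Mvk lost its call without any library but Th0 KO 2 and Treg KO 4, at 0.63 to 0.78.

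The cell cycle list gave 7 higher and 3 lower of 27 (median 0.09), where 17.1% of all genes tested rose and 15.9% fell. Without the doubted library numbers it gave 8 and 4. Cdkn1b (chr6:134920401-134925513), the gene of the inhibitor p27, was at 29.1, 54.8, 28.2, 36.8 and 31.5 CPM in Th0 KO 1 to 5 and 155, 118.7, 181, 133.5 and 168 CPM in Treg KO 1 to 5. It rose without overlap (2.07 ± 0.22, adjusted p = 1.43e-08), together with Cdkn2c (1.22 ± 0.23). Cdkn1a, the gene of p21, fell by 1.64, Ccne1 by 0.5 and Ccnd2 by 0.39, the latter not called without Treg KO 3, at -0.35. The proliferation genes Mki67 (0.74 ± 0.16), Top2a (0.67 ± 0.16) and Ccnb2 (0.89 ± 0.16) rose. Of 16 BCL2 family genes 3 rose, near the 17.1% of all genes, and 5 fell, against 15.9%. Without the doubted library numbers 3 rose and 6 fell. Bcl2 (0.91 ± 0.24) and the death genes Bcl2l11, which encodes BIM (0.99 ± 0.28), and Bmf (1.39 ± 0.4) were higher, the last not called without Treg KO 1, at 1.0. Bcl2l1, the gene of BCL-XL (-1.69 ± 0.22), and Bid (-1.25 ± 0.15) were lower, as were Bcl2a1a, Bcl2a1b and Bcl2a1d, near-identical copies whose reads the counting may have split.

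Genes outside these lists with large falls were Dclk1, a microtubule-associated kinase (-4.66 ± 0.68), Ramp3, a partner of calcitonin-type receptors (-4.62 ± 0.93), Ptpn5 (-3.95 ± 0.59) and Ccn4 (-3.7 ± 0.67). Inhba (chr13:16011851-16031621), the gene of the activin A subunit, was at 24.02, 60.9, 14.8, 21.6 and 16.7 CPM in Th0 KO 1 to 5 and 0.724, 2.69, 0.489, 0.473 and 1.08 CPM in Treg KO 1 to 5. The libraries numbered 2 were the highest in each group, and the groups did not overlap (-4.65 ± 0.76, adjusted p = 1e-05). Serpinb9 (chr13:33003250-33017957), an inhibitor of granzyme B, was at 879.7, 497, 899, 887 and 876 CPM in Th0 KO 1 to 5 and 49.3, 111.2, 47.5, 66.6 and 47.5 CPM in Treg KO 1 to 5. It fell in Treg KO without overlap (-3.65 ± 0.44, adjusted p = 1.01e-07), and the libraries numbered 2 were nearest to each other.

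Of 17 reported targets of miR-150, listed from general knowledge, 8 rose and 1 fell, with a median of 0.43. Of all genes tested 17.1% rose and 15.9% fell. The other genotypes were similar, with 8 higher and 1 lower in WT (median 0.49) and 9 higher and 0 lower in KI (median 0.54). The KO counts were again 8 and 1 without the doubted library numbers. Myb (chr10:21124935-21160984) was at 73.3, 55.9, 74.8, 67.5 and 60.96 CPM in Th0 KO 1 to 5 and 233, 136.04, 153, 326 and 161 CPM in Treg KO 1 to 5. All Treg KO libraries were above all Th0 KO libraries, with Treg KO 4 the highest (1.6 ± 0.24, adjusted p = 2.49e-06). In WT the mean levels were 54.2 ± 14.5 CPM in Th0 and 94.2 ± 20.6 CPM in Treg (SD, n = 5 each), a difference of 0.8, and the KI difference was 1.04. The KO effect exceeded the WT effect by 0.81 ± 0.33, which did not pass the test over all genes (unadjusted p = 0.0193, adjusted p = 0.89). Ccr6, Cxcr4, Foxo1 and Cbl (0.45 ± 0.1) were among the others that rose, and Egr2 fell. For this list 1 of 17 genes had an unadjusted p under 0.05 for the difference between KO and WT effects, near the 5.25% of all genes.

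Of 17 genes that make or load microRNAs 4 rose and 2 fell (median 0.01), near the shares of all genes tested (17.1% and 15.9%). The counts were the same without the doubted library numbers. The silencing partners of Argonaute, Tnrc6c (1.19 ± 0.17) and Tnrc6b (0.6 ± 0.16), the helicase gene Ddx17 (0.67 ± 0.11) and Ago1 (0.44 ± 0.15) were higher, the last not called without Treg KO 1, at 0.40. The exporter of precursors Xpo5 (-0.67 ± 0.12) and the nuclease gene Drosha (-0.5 ± 0.15) fell. Ago2, the most abundant Argonaute of most cells, was at 409 ± 30.9 CPM in Th0 KO and 354 ± 39.5 CPM in Treg KO (adjusted p = 0.183). Dicer1 was at 171 ± 6.79 CPM in Th0 KO and 156 ± 25.04 CPM in Treg KO (adjusted p = 0.309) and was called at -0.24 without Treg KO 4.

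In 3 lists of interferon-induced genes, every member tested had a higher Treg minus Th0 difference in KO than in WT and KI, although no single difference between the genotypes passed edgeR's test over all genes. Guanylate-binding proteins (GBP) and immunity-related GTPases (IRG) are induced by IFN-g and attack the vacuoles of intracellular pathogens. In KO cultures 8 of 15 of their genes tested, Irf1 included, were called higher in Treg and none lower, with a median of 0.74. In WT cultures none was higher and 7 were lower (median -0.80), and in KI none was higher and 3 were lower (median -0.64). Of all genes tested, 33.1% were called in WT (17.4% higher and 15.7% lower) and 33.6% in KI (16.7% and 16.9%). The KO effect was above the WT effect for 15 of 15 members, against 49.3% of all genes tested, and had an unadjusted p under 0.05 for the difference in 14, against 5.25%. It was above the KI effect for 15 of 15 as well, a comparison that shares the KO libraries with the first. Being above WT was not particular to these lists. It held for 26 of 27 cell cycle, 24 of 25 glycolysis, 20 of 21 cholesterol and 11 of 11 B cell marker genes, but for 5 of 29 TGF-beta pathway genes. Of the first 4 lists, 0, 2, 2 and 0 genes had an unadjusted p under 0.05, and 16, 20, 17 and 6 were above KI. Members of a list were read from the same libraries, and some are near-identical copies. The lists were also chosen with earlier results of these data known. Such counts, in all 3 lists, are therefore a description and not a set of independent outcomes.

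Many of these calls were close to the threshold in KO alone. The count of 8 was 7 without the doubted library numbers, 5 without Th0 KO 3, 4 or 5 or Treg KO 1, 3 or 5, and 4 without Th0 KO 2. Gbp2 (1.09 ± 0.42, adjusted p = 0.0397) lost its call without Th0 KO 2, 3, 4 or 5 or Treg KO 1, 3 or 5, at 0.92 to 1.08. Gbp5 (0.79 ± 0.3, adjusted p = 0.0422) lost it without any library but Treg KO 2, at 0.62 to 0.83, and Iigp1 (1.51 ± 0.52) without Th0 KO 2 or Treg KO 4, at 1.28 and 1.37. Tgtp1 (0.74 ± 0.29, adjusted p = 0.0447), a near copy of Tgtp2, lost it without any library but Th0 KO 1 and Treg KO 4, at 0.58 to 0.78, and without the doubted library numbers. The calls of Gbp3 (1.04 ± 0.24, adjusted p = 0.000991), Irf1 (0.97 ± 0.26), Irgm2 (0.78 ± 0.21) and Igtp (0.71 ± 0.2) held on leaving out each library. Reads of the near-identical GBP and IRG genes may have been split or shared in counting, so values of single members are uncertain.

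Gbp2 was at 414, 266, 319, 262 and 319 CPM in Th0 KO 1 to 5 and 936, 298, 754, 590.3 and 784 CPM in Treg KO 1 to 5. In Treg KO 2 it lay within the Th0 KO range. WT levels were 779 ± 544 CPM in Th0 and 202 ± 103.05 CPM in Treg (SD, n = 5 each), so that the order of the cultures was opposite. The WT difference was -1.95 and the KI difference -0.78.

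Gbp3 was at 32.1, 34.5, 35.3, 29.04 and 42.3 CPM in Th0 KO 1 to 5 and 84.7, 36.3, 87.9, 67.99 and 78.9 CPM in Treg KO 1 to 5. Its WT levels were 46.2 ± 13.7 CPM in Th0 and 26.5 ± 8.21 CPM in Treg, a difference of -0.8. In Treg culture every KO library but Treg KO 2 lay above the highest WT library, at 38.1 CPM. Gbp5 was at 204, 93.05, 207, 176 and 201 CPM in Th0 KO 1 to 5 and 375, 157, 288, 378 and 325 CPM in Treg KO 1 to 5, with WT levels of 236 ± 126.97 CPM in Th0 and 101.96 ± 39.4 CPM in Treg. Gbp4 (0.22 ± 0.37) and Gbp7 (0.1 ± 0.32) did not pass the test in KO (adjusted p = 0.696 and 0.854), and both fell in WT, with values of -1.99 and -1.64. Gbp7 turned to -0.01 without Th0 KO 2 and to -0.04 without Treg KO 1.

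Of the 10 members of the list with a promoter in the RefSeq table, 9 hold the interferon response motif, GAAA repeated after any 2 bases and searched on both strands, all but Irf1. Among genes with a promoter there, it was found for 12 of 20 of the interferon-stimulated list and 2 of 9 of the MHC class I list. It was found for 3.87% of genes tested and 3.99% of all genes. For 4 GBP genes of chromosome 3 and for Ifit3, the match farthest before the RefSeq start is shown. These genes were taken because Gbp2, Gbp3 and Gbp5 were called in opposite directions in KO and WT, and Ifit3 was among the largest rises of the interferon-stimulated genes. Each is a 30-base window of the plus strand of GRCm38.p6, 5′ to 3′, with the match in capitals. The windows are chr3:142620594-142620623 (Gbp2, match 49 bases before the RefSeq start), chr3:142559989-142560018 (Gbp3, 35 bases), chr3:142496759-142496788 (Gbp5, 155 bases), chr3:142530273-142530302 (Gbp7, 43 bases) and chr19:34583363-34583392 (Ifit3, 146 bases).
Gbp2: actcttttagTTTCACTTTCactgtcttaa
Gbp3: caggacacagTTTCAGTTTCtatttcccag
Gbp5: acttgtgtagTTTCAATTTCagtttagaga
Gbp7: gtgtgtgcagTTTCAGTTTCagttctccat
Ifit3: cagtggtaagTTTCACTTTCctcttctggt
The same 30 bases precede the neighbouring copy Ifit3b, at chr19:34607759-34607788.

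The difference between KO and WT effects was tested for every gene. By edgeR 0 of 21873 genes (0%) passed for KO against WT and 0 (0%) for KO against KI, with 1149 and 1489 genes at an unadjusted p under 0.05, while DESeq2 called 13 and 6. For Gbp3 edgeR gave a difference of 1.84 ± 0.34 (adjusted p = 0.0923) and for Gbp2 of 3.04 ± 0.59 (adjusted p = 0.0956). Among the 7 genes called by DESeq2 for KO against WT at a mean log2 CPM of at least 2, Gbp2 (3.02), Gbp4 (2.19), Gbp5 (1.98) and Gbp3 (1.82) were higher, and Nol4l (-1.84), Golim4 (-0.75) and Ptpn12 (-0.63) lower. For KO against KI only Gbp3 (1.6) was called by DESeq2 at that level.

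Leaving out the doubted library numbers, edgeR called 9 genes for KO against WT. Gbp2 (3.19), Gbp5 (2.04), Gbp3 (1.90) and Kbtbd11 (1.11) were higher, and Nol4l (-1.99), Ptpn12 (-0.78), Cert1 (-0.69), Lhx6 and Pcdh7 lower, the last 2 below the level minimum. Without Treg KO 2 alone edgeR called 3, Gbp2 (3.20), Gbp3 (1.98) and Pcdh7. Kbtbd11 rose in KO, from 174 ± 48.9 to 376 ± 83.2 CPM (1.12 ± 0.2), with a WT difference of 0.32. Nol4l fell in KO, from 9.07 ± 1.31 to 3.67 ± 0.714 CPM (-1.31 ± 0.27), with a WT difference of 0.5.

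**Figure D5:**
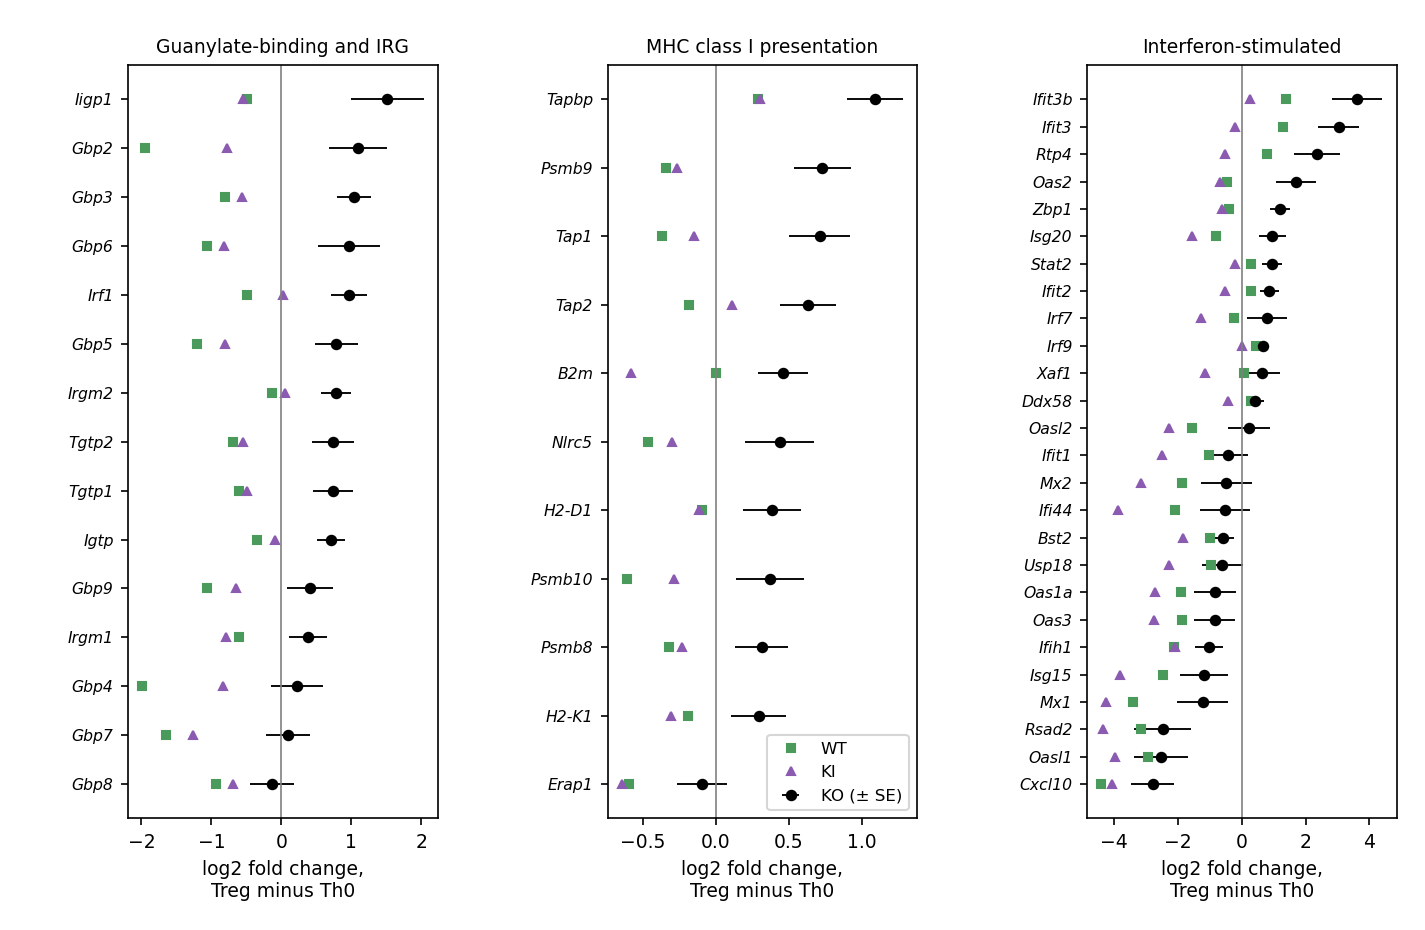
Fold change (log2, Treg minus Th0) of guanylate-binding and IRG, MHC class I and interferon-stimulated genes in WT (green squares), KI (purple triangles) and KO (black points with SE). In each panel the KO points lie to the right of the WT and KI points of the same gene, while in the right panel 13 KO points are below 0.

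Irf1 (chr11:53770014-53778374), an activator of GBP and MHC class I genes, was at 196, 115.7, 158, 134.3 and 144.9 CPM in Th0 KO 1 to 5 and 371, 229, 284, 259 and 321 CPM in Treg KO 1 to 5. Its groups did not overlap (adjusted p = 0.00399), and the KO effect exceeded the WT effect by 1.46 ± 0.37 (adjusted p = 0.43). Ifng, the gene of the cytokine that induces them, was at 157 CPM in Treg KO 2 and 1.74 to 8.88 CPM in the 4 other Treg KO libraries. Treg KO 2 was the lowest Treg KO library for Gbp2, Gbp3, Gbp5 and Irf1. Treg cultures also received antibody to IFN-g, and Treg KO 2 held 303 CPM of summed CD8 T and NK cell markers. The part of IFN-g or of other cells in these values was not tested.

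Of 11 genes that load peptides onto MHC class I, 5 rose in KO, none fell and 6 were not called (median 0.44), where 17.1% of all genes rose. The number that rose was 4 without the doubted library numbers and 3 without Treg KO 5. In WT 0 rose and 2 fell (median -0.32), and the KO effect was above both the WT and the KI effect for 11 of 11. Tap1 (chr17:34187553-34197225), a chain of the peptide transporter, was at 336, 218, 309, 317 and 245 CPM in Th0 KO 1 to 5 and 494, 339.6, 489, 449 and 562 CPM in Treg KO 1 to 5. The groups did not overlap (0.71 ± 0.21, adjusted p = 0.00704), and the KO effect exceeded the WT effect by 1.08 ± 0.29 (adjusted p = 0.43). The chaperone gene Tapbp (1.09 ± 0.19), the immunoproteasome gene Psmb9 (0.73 ± 0.2), Tap2 (0.63 ± 0.19) and B2m, the light chain (0.46 ± 0.17), were the others called. Tap2 lost its call without Treg KO 5, at 0.49, and B2m without Th0 KO 1, 2 or 3 or Treg KO 1, 2, 3 or 5, at 0.39 to 0.45.

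Interferon-stimulated genes of the antiviral type moved both ways. In KO 9 of 27 tested rose and 3 fell (median 0.22), and 8 and 3 without the doubted library numbers, while in WT 0 rose and 10 fell and in KI 1 rose and 15 fell. The KO median turned below 0 without Th0 KO 1 (-0.013), Th0 KO 2 (-0.031) or Treg KO 5 (-0.065). The KO effect was above the WT and the KI effect for all 27, 2 comparisons that share the KO libraries, with an unadjusted p under 0.05 for the difference from WT in 6. Ifit3 (chr19:34583531-34588731), which binds viral RNA complexes with its family members, was at 1.01, 0.394, 4.92, 3.63 and 3.49 CPM in Th0 KO 1 to 5 and 22.7, 4.25, 20.6, 32.2 and 30.8 CPM in Treg KO 1 to 5. Its groups overlapped only through Treg KO 2 and Th0 KO 3 (3.04 ± 0.65, adjusted p = 0.00036), and Ifit3b, its near-identical copy, cannot be separated from it with certainty. Rtp4 (2.36 ± 0.73), Zbp1, a sensor of nucleic acids (1.19 ± 0.32), Stat2 (0.95 ± 0.3), Ifit2 (0.87 ± 0.3) and Irf9 (0.67 ± 0.2) were also higher. Stat2 lost its call without Th0 KO 1, at 0.83, and Ifit2 without Th0 KO 1 or 2 or Treg KO 4, at 0.72 to 0.81.

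The 3 that fell were Cxcl10, Oasl1 (-2.52 ± 0.85) and Rsad2, which encodes viperin (-2.48 ± 0.89). The call of Rsad2 was lost without Th0 KO 5 or Treg KO 1, 2, 3 or 4, at -2.44 to -1.93. The often used markers of this response, Isg15 and Mx1, were at 32.6 ± 18.8 CPM in Th0 KO and 14.2 ± 6.98 CPM in Treg KO and at 17.03 ± 13.6 CPM in Th0 KO and 7.28 ± 4.16 CPM in Treg KO (SD, n = 5 each) and did not pass the test (adjusted p = 0.235 and 0.253).

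Some markers of other cell types were called, where 17.1% of all genes tested rose and 15.9% fell. In bulk RNA, fewer cells of a type and less RNA per cell cannot be told apart. Of 10 CD8 T and NK cell markers 1 rose, Gzmk, and 1 fell, Eomes, and 3 fell without the doubted library numbers or without Treg KO 2 alone. Gzmk was at 0.0416 and 0.444 CPM on average and lost its call without any library but Th0 KO 2 and Treg KO 4, at 2.74 to 3.60. Of 14 myeloid markers tested 4 rose, S100a8, S100a9, Lyz2 (4.48 ± 0.94) and Itgam (2.99 ± 0.86), and 1 fell, Cst3 (-1.05 ± 0.27), and 5 and 1 without the doubted library numbers. S100a8 had 0 counts in Th0 KO and 425 in Treg KO, at least 29.3-fold higher against the floor, and S100a9 3 and 569. The summed myeloid markers overlapped between the groups, at 76.2 to 122.5 CPM in Th0 KO and 49.6 to 121.2 CPM in Treg KO.

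Of 11 B cell markers Ighd (2.1 ± 0.76) rose and Ighg1 (-3.18 ± 0.89) and Igkc (-2.02 ± 0.8) fell, and without the doubted library numbers 3 rose and 1 fell. The call of Ighd was lost without Th0 KO 1, 2, 3 or 4 or Treg KO 3 or 5, at 1.90 to 2.01, and that of Igkc without Th0 KO 2 or 5 or Treg KO 1, 3 or 4, at -1.92 to -1.32. Summed, B cell markers were at 169.9 to 764 CPM in Th0 KO, the highest in Th0 KO 2, and 315 to 680.1 CPM in Treg KO. Of 7 erythroid markers tested none was called, 2 fell without the doubted library numbers, and their sum was at most 6.18 CPM. Of 5 gamma-delta T and NKT cell markers 1 fell, Sox13 (-2.25 ± 0.56), and the sums were highest in the libraries numbered 2, at 61.5 CPM in Th0 KO 2 and 46.5 CPM in Treg KO 2 against at most 22.3 CPM in the others. The part of other cells in the results was not tested. Of 10 CD4 T cell genes 5 rose and none fell, where 17.1% of all genes rose. The 5 were Cd3e (0.8 ± 0.14), Cd3g (0.68 ± 0.2), Cd3d (0.48 ± 0.17), Trac (0.46 ± 0.09) and Lck (0.4 ± 0.13). The number that rose was 7 without the doubted library numbers, 8 without Treg KO 4, and 3 without Th0 KO 5, Treg KO 1 or Treg KO 3. The calls of Cd3d and Lck were the less stable ones, lost without Th0 KO 5 and Treg KO 1 and 3 (both genes), Th0 KO 3 and 4 (Cd3d) and Treg KO 5 (Lck), at 0.31 to 0.46. Cd4 was at 471 ± 70.1 CPM in Th0 KO and 551 ± 81.1 CPM in Treg KO (adjusted p = 0.456). None of 10 mitochondrial transcripts was called, and their sum was 23402 to 28114 CPM in Th0 KO and 26468 to 36506 CPM in Treg KO.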

How the data were processed

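The authors deposited a table of read counts per gene for 44 libraries, with 2 lane columns for each, and the unit was checked in the values: whole numbers that sum to a different total in each library. The libraries were made with a stranded kit for polyadenylated RNA, per the labels' protocols. For strand, and for reads that match several genes, the counting rule is not given in the sources analysed. Lane columns were summed per library. The quasi-likelihood test of edgeR 4.0.16 (R 4.3.3) was run with TMM normalization, after filterByExpr had removed genes with low counts, over 9 group means and all 44 libraries, and Benjamini-Hochberg adjustment at 0.05. DESeq2 1.42.0 was an alternative. CPM, counts per 1000000 counted reads, uses TMM library sizes, and the components use log2(CPM + 0.5). Of 55416 genes, 21873 were tested. 1492 carried no name, and 108 symbols stood on more than 1 gene.

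Named genes were Foxp3, Il2, Tbx21, Ifng, Myb and Mir150, the 12 largest called rises and falls without overlap among genes whose log2 CPM averaged 2 or more, and members of gene lists, mostly the largest changes and defining members. Some list members were named after their values were seen, and some genes that the rule names are not reported here. The comparison and the lists were chosen with earlier results of these data known. Other settings tried were size factors by relative log expression, no filter on low counts, only the groups compared, the library number as a block, the Cd8a level as a covariate, the deeper lane alone, a test against a 2-fold change, and leaving out libraries. Counts were simulated with 50 changed genes at each fold. On them this test recovered 19 at 1.5-fold, 39 at 2-fold, 48 at 4-fold and 49 at 8-fold, with 4 false calls among 21873 genes. In the data 33% of genes were called, far more than were changed in the simulation, and Treg KO 2 stood apart. Whether the simulated rates hold for this comparison was not tested.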

Additional observations from a re-analysis of the deposited data

Results flagged for a closer look

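In groups of 5 libraries, a library was set apart where its gap to the nearest other was above the 95% critical value of Dixon's test relative to the group's range. Of 78 groups tested, 21 held such a library, and all 21 were libraries numbered 2. The genes share the same libraries, some were named after their values were seen, and CPM was used without logs. The rate of about 1 in 20 from chance alone therefore does not apply to this count. Cd8a, by which the doubted library numbers were chosen, is among the 21. Treg KO 2 was low for Foxp3, at 77.4 CPM against 376 to 431 CPM in the other 4. It was high for Ifng (157 CPM against 1.74 to 8.88), Tbx21 (47.3 CPM against 4.06 to 12.6), Gzmb (1657 CPM against 18.7 to 67.7), Il13 (7.21 CPM against 0 to 0.388) and Cd8a (73.1 CPM against 5.67 to 15.4). It was also high for Il3 (1.06 CPM), Csf2 (1.83 CPM), Inhba (2.69 CPM), Cth (15.98 CPM), Asns (166 CPM) and Nop56 (375 CPM).

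Th0 KO 2 was high for Il13 (127.2 CPM against 4.52 to 12.2), Gzmb (4421 CPM against 1045 to 1626), Ldlrad4 (1.63 CPM), Socs2 (41.8 CPM), Igfbp4 (41.9 CPM) and Inhba (60.9 CPM). It was low for Gbp5 (93.05 CPM against 176 to 207), Odc1 (902 CPM against 1683 to 1802) and Serpinb9 (497 CPM against 876 to 899). The part of other cells in these values was not tested.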

How the results depend on the processing

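No called gene named in the text changed direction under any setting tried. Of 217 named and called genes, 187 stayed called under every setting except the test against a 2-fold change, which called 773 genes (462 higher and 311 lower). Leaving out each library gave 6148 to 7698 called genes (3076 to 3725 higher, 3063 to 3973 lower), and the other settings stayed within 1.5 times of the count of 7214. The difference between KO and WT effects gave 0 to 3 calls on leaving out each library (0 to 2 higher, 0 to 1 lower), 13 with DESeq2 (7 higher, 6 lower), 2 with the library number as a block (2 higher), and 9 without WT 4, KO 2 and KI 3 (4 higher, 5 lower). That between KO and KI gave 0 to 1 (lower), and 6 with DESeq2 (5 higher, 1 lower). Genes without a call that changed sign were Il10 (-5.82 to 1.17 on leaving out each library), Smad3 (-0.14 to 0.12, and 0.17 without the doubted library numbers) and Gbp7 (-0.037 to 0.21, and -0.039 with Cd8a as a covariate). For these the cause was not tested. Fitting the library number as a block called 8835 genes, 4524 higher and 4311 lower. Libraries with the same number deviated together with correlations of 0.0043 to 0.404 in KO, 0.253 to 0.586 in WT and 0.354 to 0.512 in KI, and 4 of 5 Th0 KO libraries correlated best with the Treg KO library of their own number. This is a hint of pairing from the data, but 1 KO pair lay below the 0.1 required of every pair, so the numbers were not read as pairs. With the block Ifng (-5.07), Tbx21 (-2.27), Gzmb (-4.10), Il10 (-2.26), Il2ra (0.45), Tgfb1 (0.52), Tcf7 (0.52) and Cd8a (1.65) gained a call, Eomes (-1.55) lost it, and the difference between the KO and WT effects passed for Gbp3 (1.83, adjusted p = 0.0499 by edgeR). List counts moved by more than 1.5 times in several settings. With the block, lower members numbered 10 (5 in the fit reported) in the Treg programme, 6 (3) in the TGF-beta pathway, 11 (5) on the Th1, 6 (1) on the Th2 and 4 (2) on the Th17 list, 11 (7) among costimulatory and inhibitory receptors, 3 (1) among chemokine receptors, 6 (3) among interferon-stimulated genes, 2 (1) in glycolysis and 4 (2) in microRNA processing. Higher members then numbered 2 (1) for cytokines, 2 (1) for chemokines, 4 (1) for transcription factors induced by the antigen receptor, 5 (2) for glycolysis and 7 (4) for cholesterol. With the Cd8a covariate the lower counts were 10 (Treg programme), 5 (TGF-beta), 14 (Th1), 6 (Th2), 4 (Th17), 3 (chemokine receptors), 3 (glycolysis), 5 (microRNA processing) and 7 against 1 (CD8 T and NK cell markers), and 4 transcription factors induced by the antigen receptor were higher. With only the groups compared they were 9 (Th1), 2 (Th2), 2 (chemokine receptors), 5 (interferon-stimulated) and 2 (glycolysis), with 3 higher for cytokines, 3 for chemokines, 2 for those transcription factors and 9 for cholesterol. DESeq2 gave 9 lower Th1, 2 lower Th2 and 10 lower oxidative phosphorylation genes and 2 higher of those transcription factors, relative log expression factors 10 lower oxidative phosphorylation genes, and no filter 3 lower of these, 5 higher guanylate-binding and IRG genes and 2 higher IL-2 pathway genes. Genes near the floor of 0.0222 to 0.0369 CPM are limited by depth.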
